A study of Mus musculus with 4 samples.

Results

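Itga8, Npnt, Fras1, Frem1, Frem2 and Grip1, a group of 6 genes around the basement membrane, were followed in mouse ovaries that overexpress Sall1. They were chosen by name for their shared part in the outgrowth of the ureteric bud, with earlier results of these data known. All 6 were found among the 34682 gene symbols of the count table. RNA was sequenced from whole developing ovaries of E13.5 embryos, with 2 libraries from Sall1-overexpressing mutant ovaries and 2 from wild-type ovaries. The mutants carried a BAC, a large genomic insert, in which the coding sequence of Sall1 stands under the promoter and regulatory elements of Wt1, a gene active in the somatic cells of the gonad. The construct was integrated by PiggyBac transgenesis into female embryonic stem cells, from which mice were made by morula aggregation. In the methods on transfection these cells derive from C57BL/6J blastocysts. The section on animals names C57BL/6J or a hybrid of C57BL/6J and 129 for the transgenic experiments. The study describes the controls as littermates in one place and names wild-type CD1 gonads in another, and the wild-type columns carry B6 in their names, so a difference in strain and the transgene cannot be told apart here. The labels name no treatment other than Sall1 overexpression and do not say how many embryos or clones stand behind a library.

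When the metanephric kidney forms, the ureteric bud grows out of the nephric duct into the metanephric mesenchyme. The bud epithelium secretes nephronectin (Npnt) into its basement membrane. Mesenchymal cells bind nephronectin through the integrin α8β1, whose α subunit is encoded by Itga8, and this contact sustains the release of GDNF, the signal for outgrowth. Fras1, Frem1 and Frem2 form the Fraser complex, a set of large proteins that assemble at epithelial basement membranes and help to hold nephronectin there, and Grip1 is an intracellular adaptor with PDZ domains that is needed to bring Fras1 and Frem2 to the basal cell surface. Loss of a component of this system can leave an embryo without kidneys.

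Short coding stretches of some of these genes and of a relative of Npnt are shown from the longest coding transcripts in GENCODE M1 on NCBIM37 (mm9). The first pair surrounds the codons for arginine, glycine and aspartate, the RGD motif that α8β1 recognizes, given in capitals and written 5′ to 3′ on the coding strand. Itga8, Fras1 and Frem1 also hold 1 RGD match each, and those stretches are not shown. The Npnt stretch lies in exon sequence on the minus strand at chr3:132567622-132567651, and that of Egfl6, which encodes a relative of nephronectin that also binds α8β1, on the minus strand at chrX:162976346-162976375.
Npnt: atcctcagaaacccAGAGGAGATgtgttca
Egfl6: aggagcgaaccctcCGAGGGGATgtattct

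The next 3 stretches are the ends of the Fraser complex coding sequences, with the last 2 codons before the stop codon in capitals. The end of Fras1 lies on the plus strand at chr5:97210761-97210790, that of Frem2 on the minus strand at chr3:53320454-53320483 and that of Frem1 on the minus strand at chr4:82546303-82546332. Fras1 and Frem2, which span the membrane, both end in codons for glutamate and valine, a type of ending that PDZ domains bind, whereas the secreted Frem1 ends in codons for lysine and leucine.
Fras1: aacaatttacaagatgggacgGAAGTTtaa
Frem2: agccactacaacgacagctcgGAGGTGtga
Frem1: cacaattttgtgtgctcaaggAAACTCtga

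Totals lay between 11036313 and 17869840 counts per library, with the mutant libraries shallower than the wild-type ones, and libraries of the same genotype varied beyond sampling noise. Sall1 stood at 113 and 96.0 CPM (counts relative to library totals that edgeR's TMM method had adjusted) in the mutant libraries against 16.2 and 12.6 CPM in the wild-type libraries. Markers of the fetal ovary were present, with 0 of 7 pre-granulosa and 0 of 6 germ cell markers at 0 in all libraries. Wild-type replicate 1 stood apart by skeletal muscle genes, since the summed level of 7 muscle markers was 235 CPM there and between 37.8 and 67.2 CPM in the other libraries, while 1 of the markers, Myh8, was at 0 in all of them. Outside wild-type replicate 1 the sum was mostly Tnnt1. Mutant replicate 1 had more muscle RNA than both replicate 2 libraries. Actc1 stood there at 12.9 CPM, against 0.997 CPM in mutant and 2.78 CPM in wild-type replicate 2. For Acta1 these values were 6.44, 0.598 and 1.98 CPM. Without wild-type replicate 1 the log2 fold changes reported below were -0.63 for Itga8, 0.45 for Fras1, 0.26 for Npnt, -0.065 for Frem2, -1.11 for Frem1 and 0.30 for Grip1. Without mutant replicate 1 they were -0.48 for Itga8, 0.46 for Fras1, 0.12 for Npnt, -0.051 for Frem2, -0.94 for Frem1 and 0.084 for Grip1. Nothing says that the replicates came from separate animals, so p-values measure the spread between these libraries, which may be technical.

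All 6 genes passed edgeR's filter on low counts and entered its quasi-likelihood test with Benjamini-Hochberg adjustment over 15442 genes. At an adjusted p under 0.05 the test called 0 of the 6, where it called 0.0583% of all genes. At an unadjusted p under 0.05 it gave 2 of the 6, Itga8 and Fras1, against 5.69% of all genes. DESeq2 with default settings, the tool named by the study, called the same pair of genes, 1 lower and 1 higher in mutant ovaries, against 0.725% of the genes to which it gave an adjusted p. The mutant and wild-type libraries did not overlap for 5 of the 6 genes, all but Frem2. With 2 libraries against 2 such separation is frequent, and it was found for 30.9% of all genes tested. For 1 gene at a time, the smallest two-sided p that exact permutation of these 4 libraries allows is 0.33.

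**Figure D1:**
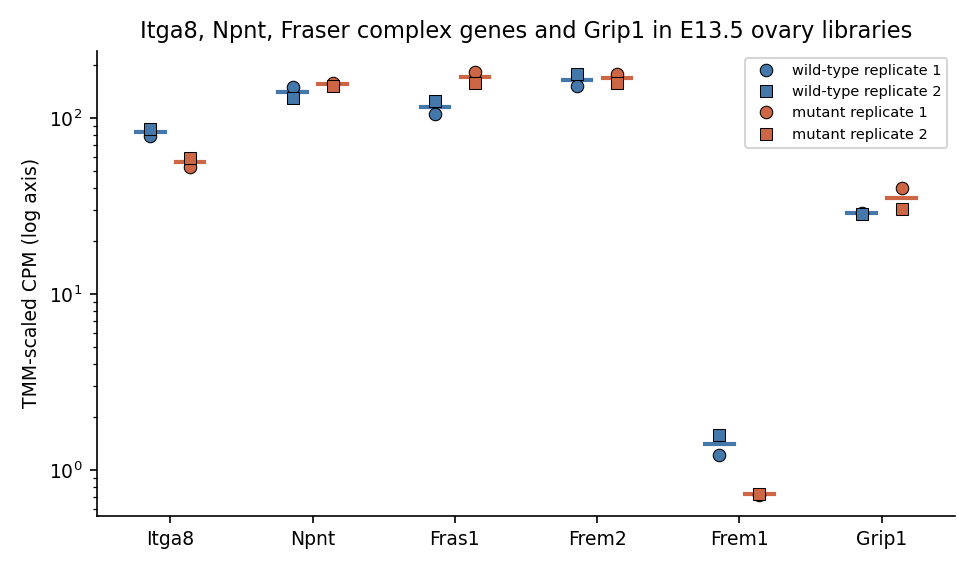
TMM-scaled CPM (log axis) of the 6 genes in each library, wild-type in blue and mutant in red, with circles for replicate 1, squares for replicate 2 and a bar at the mean of each group. Both mutant libraries lie below the wild-type libraries for Itga8 and above them for Fras1, the values of Frem2 overlap, and Frem1 lies far below the others.

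Itga8 (ENSMUSG00000026768.4, minus strand, chr2:12028259-12223547 in GENCODE M1 on NCBIM37), the α subunit of the nephronectin receptor, was the lower of the 2 genes. In mutant ovaries 578 and 897 counts were assigned to it, or 52.4 and 59.6 CPM, and in wild-type ovaries 1369 and 1528 counts, or 79.6 and 86.6 CPM. Both mutant values lay below both wild-type values, and the gap between the groups was wider than the spread within either. The mutant level was 67.5% of the wild-type level, a log2 fold change of -0.57 (standard error 0.11, 95% interval -0.84 to -0.30), which did not pass edgeR's test (adjusted p = 0.277). It passed in DESeq2 (log2 fold change -0.57, standard error 0.16, adjusted p = 0.0366), but not once any single library was left out, with DESeq2 adjusted p from 0.277 to 1.00. In ovaries sequenced as a whole, fewer cells of a type and less RNA per cell cannot be told apart. The antisense gene E030013I19Rik shares 369 exon bases with Itga8 and had 0 counts in every library.

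Markers of interstitial and stromal cells, among which Itga8 is commonly found, moved with it in part. Of 6 such markers, 5 had a lower fitted level in mutant ovaries, where the median log2 fold change over all genes tested was -0.00088. DESeq2 called 3 of the 6 lower, beside 0.725% of the genes to which it gave an adjusted p. The edgeR test called 0, beside 0.0583% of all genes. Tcf21, a transcription factor of the gonadal mesenchyme, had 28.0 and 23.3 CPM in mutant and 57.7 and 51.7 CPM in wild-type libraries. Pdgfra, a receptor of stromal progenitors, had 168 and 139 CPM against 233 and 217 CPM, and Lum, a matrix proteoglycan, 27 and 19.5 CPM against 37.2 and 42.9 CPM. Of the markers not called, Nr2f2 had a log2 fold change of -0.47, Dcn of -0.25 and Col1a1 of 0.15. Col1a1, with 554 and 313 CPM in mutant and 405 and 378 CPM in wild-type libraries, overlapped between the groups. Dcn, with 113 and 56.9 CPM against 97 and 104 CPM, overlapped too. The summed level of the 6 markers, dominated by Col1a1, ranged from 597 to 958 CPM in mutant and from 864 to 916 CPM in wild-type libraries, and so overlapped. That of 5 smooth muscle and pericyte markers ranged from 130 to 163 CPM in mutant and from 169 to 186 CPM in wild-type libraries, with 0 of them called by either tool. The highest of them, Pdgfrb, had 83.1 and 80.7 CPM in mutant and 91.7 and 103 CPM in wild-type libraries. Acta2, Myh11, Rgs5 and Cnn1 each overlapped between the groups, and Myh11 had a log2 fold change of 0.05. None of these markers was at 0 in all libraries, and their part in the result for Itga8 was not tested.

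Npnt (ENSMUSG00000040998.12, minus strand, chr3:132544709-132613255), the ligand, stood at 159 and 152 CPM in mutant ovaries and at 151 and 130 CPM in wild-type ovaries. The lower mutant library and the higher wild-type library were nearly level. Its log2 fold change of 0.15 (standard error 0.10) had a 95% interval from -0.10 to 0.40 (edgeR, adjusted p = 1.00). Without wild-type replicate 1 the value was 0.26 and without wild-type replicate 2 it was 0.053.

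Receptor and ligand were also set against each other within each library, a ratio that no scaling between libraries can change. For every count of Npnt there were 0.331 and 0.392 counts of Itga8 in mutant ovaries, as against 0.527 and 0.667 in wild-type ovaries. The ratio was thus lower in both mutant libraries, with a mean log2 difference of -0.72 and an exact two-sided permutation p of 0.33, the smallest possible here. Against Itgb1, the β subunit with which the α8 subunit pairs, the ratio of Itga8 was 0.101 and 0.120 in mutant and 0.152 and 0.169 in wild-type libraries. Itgb1 itself had 518 and 497 CPM in mutant and 523 and 513 CPM in wild-type libraries, with a fold of 0.980.

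Fras1 (ENSMUSG00000034687.4, plus strand, chr5:96802974-97213747), the founding member of the Fraser complex, went the other way. In mutant ovaries 2013 and 2391 counts were assigned to it, or 183 and 159 CPM, and in wild-type ovaries 1814 and 2208 counts, or 105 and 125 CPM. Both mutant libraries lay above both wild-type libraries. The mutant level was 148% of the wild-type level, a log2 fold change of 0.57 (standard error 0.12, 95% interval 0.28 to 0.85), which did not pass edgeR's test (adjusted p = 0.317). It passed in DESeq2 (log2 fold change 0.56, standard error 0.14, adjusted p = 0.0148), but with any single library left out the DESeq2 adjusted p lay between 0.0994 and 1.00.

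Frem2 (ENSMUSG00000037016.6, minus strand, chr3:53317861-53461277), which is stabilized together with Fras1 at the membrane, had 178 and 159 CPM in mutant and 153 and 177 CPM in wild-type libraries. The groups overlapped, and the log2 fold change of 0.03 (standard error 0.11) had a 95% interval from -0.23 to 0.30 (edgeR, adjusted p = 1.00). Within each library there were 1.02 and 0.998 counts of Fras1 for every count of Frem2 in mutant ovaries, as against 0.689 and 0.709 in wild-type ovaries. The 2 libraries of each group were close to each other in this ratio, and the groups differed by 0.53 on the log2 scale, again with the smallest exact permutation p of 0.33. These ratios were computed after the levels had been seen.

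**Figure D2:**
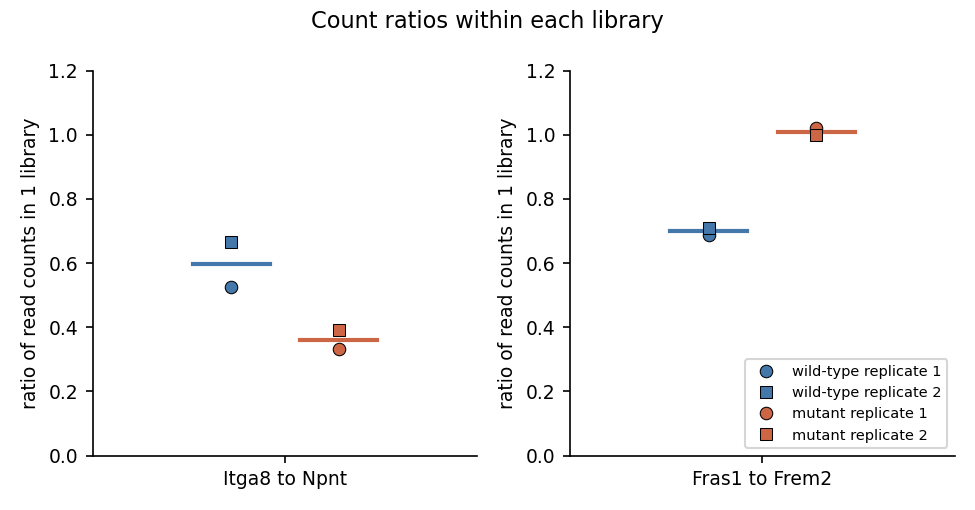
Ratio of read counts within each library, Itga8 to Npnt on the left and Fras1 to Frem2 on the right, with wild-type libraries in blue, mutant libraries in red and bars at the group means. The ratio of Itga8 to Npnt lies between 0.331 and 0.392 in mutant and between 0.527 and 0.667 in wild-type libraries, and that of Fras1 to Frem2 between 0.998 and 1.02 in mutant and between 0.689 and 0.709 in wild-type libraries.

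Frem1 (ENSMUSG00000059049.7, minus strand, chr4:82543825-82698243), the secreted member of the complex, was barely present. Only 8 and 11 counts were found in mutant ovaries and 21 and 28 in wild-type ovaries, or 0.726 and 0.731 CPM against 1.22 and 1.59 CPM. Both mutant values were lower, but the 95% interval of the log2 fold change of -0.94 (standard error 0.44) ran from -1.98 to 0.10 (edgeR, adjusted p = 0.944), and at this depth no difference was detectable. A count of 3, taken as the floor, corresponds to between 0.170 and 0.272 CPM and the gene stood at 8 to 28 counts. The floor covers counting error only.

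Grip1 (ENSMUSG00000034813.10, plus strand, chr10:118891090-119524317), the adaptor, had 40.0 and 30.5 CPM in mutant and 28.9 and 28.6 CPM in wild-type libraries. Mutant replicate 2 was close to the wild-type libraries, and only mutant replicate 1 stood clearly above them. The log2 fold change of 0.29 (standard error 0.15) had a 95% interval from -0.08 to 0.66 (edgeR, adjusted p = 1.00). Without mutant replicate 1 it was 0.084 and without mutant replicate 2 it was 0.48, so its size rests on 1 library.

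**Figure D3:**
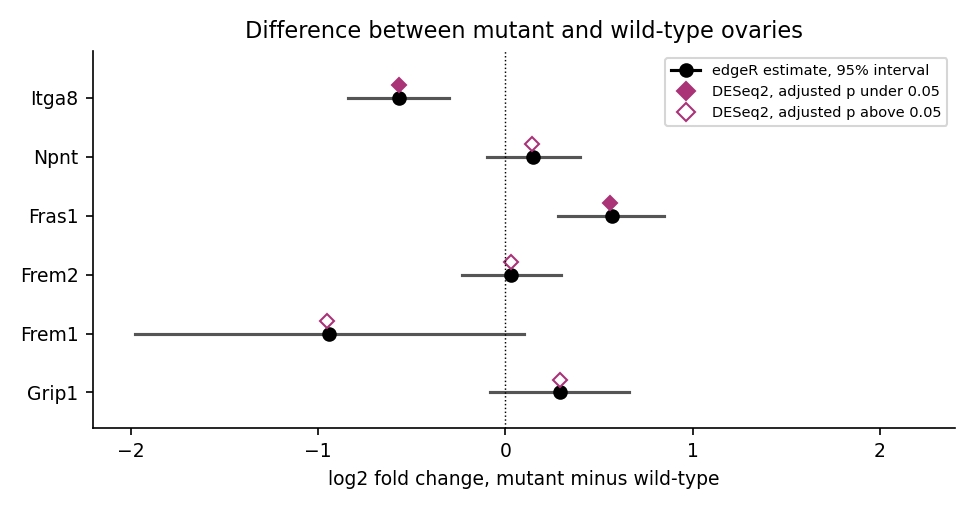
Log2 fold change of the 6 genes, mutant minus wild-type, with edgeR's estimate and its 95% interval in black and DESeq2's estimate as a diamond, filled where its adjusted p is under 0.05. Only Itga8, at -0.57, and Fras1, at 0.57, have intervals that leave out 0, and Frem1 has the widest interval, from -1.98 to 0.10.

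The surface epithelium and its neighbours were looked at beside Fras1, since Fraser complex genes are epithelial in most organs. The summed level of 7 surface epithelium and mesothelium markers ranged from 155 to 214 CPM in mutant and from 241 to 243 CPM in wild-type libraries, opposite to Fras1. DESeq2 called 1 of them, Upk3b, lower, where it called 0.725% of the genes to which it gave an adjusted p. Upk3b, the highest of the list, had 63.5 and 48.3 CPM in mutant and 86.3 and 97.8 CPM in wild-type libraries. All 6 markers tested had lower fitted levels, but Upk1b, Krt19, Lrrn4 and Krt18 overlapped between the groups. Their log2 fold changes were -0.34, -0.01, -0.22 and -0.11. Krt7, at -0.47, did not overlap. The sum of 10 mesonephric duct and tubule markers ranged from 141 to 150 CPM in mutant and from 131 to 136 CPM in wild-type libraries, with 0 called by either tool. This sum was mostly Epcam and Cdh1, and of the 8 markers tested 4 were higher and 4 lower in mutant ovaries. Among the higher ones Pax8, a transcription factor of nephric tubules, had 13.9 and 17.7 CPM in mutant and 9.07 CPM in each wild-type library. For 7 pre-granulosa markers the sum ranged from 620 to 625 CPM in mutant and from 581 to 607 CPM in wild-type libraries, with 5 of the 7 higher, while DESeq2 called 1, Bmp2, lower. Foxl2, a transcription factor of pre-granulosa cells, had 46.3 and 44.1 CPM in mutant and 28 and 32 CPM in wild-type libraries, a log2 fold change of 0.59 close to that of Fras1 (adjusted p = 0.301 in edgeR and 0.136 in DESeq2). Irx3, with 79.2 and 78.2 CPM against 62.5 and 61.9 CPM, and Fst, with 180 and 170 CPM against 161 and 157 CPM, also did not overlap between the groups. The same was true of 30.9% of all genes tested. Wnt4, Runx1 and Rspo1 of the same list did overlap, with log2 fold changes of 0.01, 0.04 and -0.06. The sum of 5 Sertoli cell markers ranged from 30.8 to 33.4 CPM in mutant and from 18.5 to 21.2 CPM in wild-type libraries, with 0 called by either tool. Most of this sum was Aard, with 24.0 and 21.1 CPM in mutant and 12.8 and 15.0 CPM in wild-type libraries. Of the 4 Sertoli markers tested 3 were higher and 1 lower. Their log2 fold changes were 1.75 for Ptgds, 0.69 for Aard, 0.32 for Sox9 and -0.12 for Dhh. Ptgds had 3.45 and 4.45 CPM in mutant and 1.16 and 1.19 CPM in wild-type libraries (adjusted p = 0.266 in edgeR and 0.26 in DESeq2). Amh had 3 counts in every library and was not tested. Each of these markers had at least 1 count in some library, and their part in the result for Fras1 was not tested.

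Levels of different genes were compared only per length, as CPM divided by the kilobases of the longest coding transcript. In wild-type ovaries Npnt came first with 30.4 ± 3.23 CPM per kb (SD, n = 2), followed by Itga8 with 14.3 ± 0.854 and Frem2 with 13.3 ± 1.34 CPM per kb (SD, n = 2 each), which overlapped. Fras1 had 7.27 ± 0.878, Grip1 5.75 ± 0.0383 and Frem1 0.145 ± 0.0267 CPM per kb (SD, n = 2 each). In mutant ovaries Npnt again led with 33.7 ± 0.968 CPM per kb (SD, n = 2), ahead of Frem2 with 13.7 ± 1.09, Fras1 with 10.8 ± 1.06, Itga8 with 9.64 ± 0.874, Grip1 with 7.06 ± 1.35 and Frem1 with 0.0752 ± 0.000385 CPM per kb (SD, n = 2 each). Fras1 and Itga8, which were well apart in the wild-type libraries, overlapped in the mutant libraries. This overlap depends on the length used, since with the union of all exons mutant Itga8 had 7.21 and 8.2 CPM per kb and mutant Fras1 11.5 and 10 CPM per kb. Thus RNA of the ligand was more abundant per length than that of the α subunit of its receptor in both genotypes. The β subunit Itgb1, shared by many integrins, stood far above all of them at 136 ± 1.88 CPM per kb (SD, n = 2) in wild-type ovaries.

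Of the close relatives and partners of the 6 genes, 0 were called by edgeR or DESeq2, which called 0.0583% and 0.725% of the genes they tested. Egfl6, the relative of Npnt whose RGD codons are shown above, had 41.7 and 22.2 CPM in mutant and 43.8 and 32.6 CPM in wild-type libraries, and varied as much within a group as between them. Frem3, the remaining Frem gene, was at or near the floor with 0 and 4 counts in mutant and 3 and 1 in wild-type libraries, and was not tested. Grip2, the relative of Grip1, had 4.45 and 6.51 CPM against 5.93 and 4.19 CPM. Vwa2, which encodes a basement membrane protein that binds the Fraser complex, had 3.18 and 3.26 CPM against 3.20 and 2.21 CPM. Cspg4, a proteoglycan with repeats like those of Fras1, had 20.5 CPM in each mutant library and 26.9 and 25.7 CPM in the wild-type libraries (edgeR, adjusted p = 0.744).

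Together with these relatives and partners, 51 genes of the same pathway were listed in 5 lists, of which 44 were tested, and edgeR called 0 of them in either direction, as did DESeq2. At an unadjusted p under 0.05 edgeR gave 3 higher and 3 lower, 6 of the 44, beside 5.69% of all genes tested. Their median log2 fold change was -0.026, beside -0.00088 over all genes tested and 0.090 over the 6 genes.

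Of the 9 genes for the partner subunit, ligands and related subunits of α8β1, the median log2 fold change was -0.030 and the smallest p-values belonged to Tnc and Tgfb1. Tnc, tenascin C, had 24.8 and 21.9 CPM in mutant and 18.1 and 15.4 CPM in wild-type libraries (edgeR, adjusted p = 0.676), with both mutant libraries above both wild-type libraries. Tgfb1 had 7.62 and 8.37 CPM against 9.88 and 10.1 CPM. Fibronectin (Fn1), with 533 and 496 CPM against 545 and 490 CPM, was nearly level. Vitronectin (Vtn) had the lowest fitted value, a log2 fold change of -2.30, but it had 1.27 and 0.399 CPM in mutant and 7.85 and 0.113 CPM in wild-type libraries, so the value came from wild-type replicate 1 alone.

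In the GDNF-RET axis 8 of 12 genes were tested, with a median log2 fold change of -0.12. Gdnf itself, the signal that the nephronectin contact sustains, had 1 and 7 counts in mutant and 5 counts in each wild-type library, too few to be tested. Its receptor Ret had 8.71 and 14.3 CPM in mutant and 15.2 and 17.8 CPM in wild-type libraries (edgeR, adjusted p = 0.982). Wnt11, a RET target at the bud tip, had 17.5 and 13.0 CPM against 8.37 and 7.59 CPM (log2 fold change 0.93, adjusted p = 0.347 in edgeR and 0.189 in DESeq2). Bmp4, a mesenchymal ligand that restrains budding, had 8.26 and 11.2 CPM against 4.59 and 5.16 CPM (log2 fold change 1.00, adjusted p = 0.428 in edgeR and 0.411 in DESeq2). Neither passed, although the groups did not overlap for either gene.

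Among the regulators of the metanephric mesenchyme, 10 of 12 were tested, with a median log2 fold change of 0.066. The smallest p belonged to Kif26b, a kinesin-family gene that acts downstream of Sall1 in the kidney and is needed for Itga8 in the mesenchyme. It had 31.8 and 21.6 CPM in mutant and 49.3 and 41.4 CPM in wild-type libraries, a log2 fold change of -0.77 (standard error 0.20). Kif26b was thus on the same side as Itga8 and on the opposite side to Sall1, and a link between these genes was not tested. The difference for Kif26b did not pass in edgeR (adjusted p = 0.459) or in DESeq2 (adjusted p = 0.0556). With mutant replicate 1 left out its log2 fold change in edgeR was -1.07. Hoxd11 followed with 2.09 and 2.13 CPM against 5.81 and 2.89 CPM (edgeR, adjusted p = 0.848).

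The 14 structural components of basement membranes, among them laminin chains, nidogens, perlecan, agrin and type IV and XVIII collagens, were all tested and spanned log2 fold changes from -0.18 to 0.13 only, with a median of -0.035. Nid1 had 272 and 275 CPM in mutant and 300 and 301 CPM in wild-type libraries, and Col18a1 had 488 and 467 CPM against 452 and 420 CPM, the 2 smallest p-values of the list (edgeR, adjusted p = 1.00 for both). Of the 6 genes, all but Frem2 had fitted values outside the range of these components. Npnt, at 0.15, lay only just outside it. The 95% intervals of Npnt (-0.10 to 0.40), Frem1 (-1.98 to 0.10) and Grip1 (-0.08 to 0.66) included 0.

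**Figure D4:**
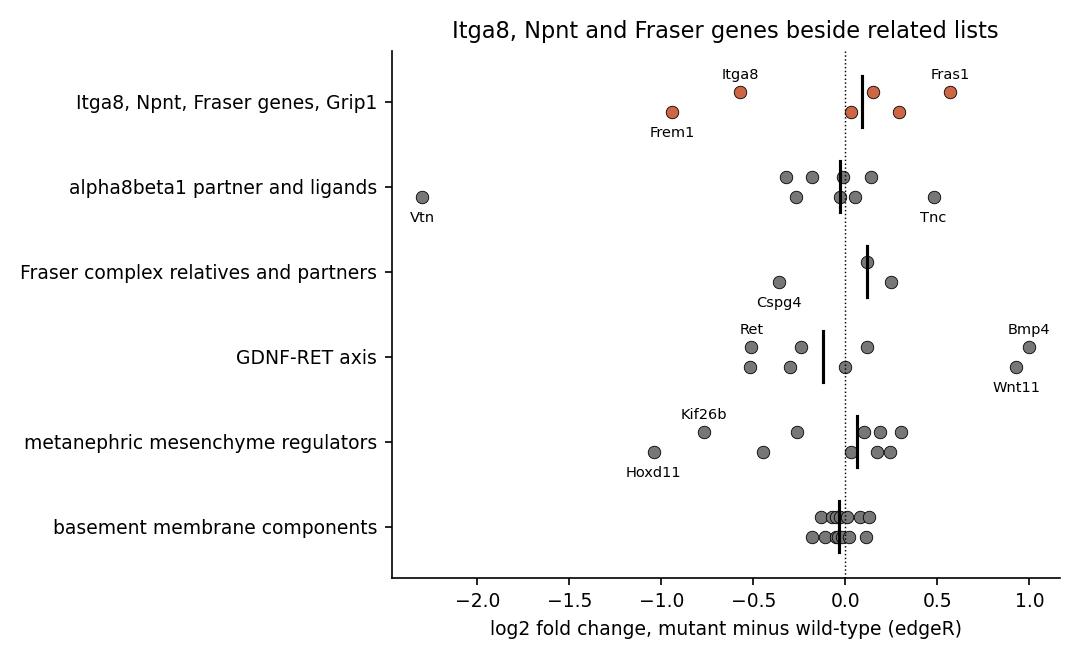
Log2 fold change, mutant minus wild-type, from edgeR for the 6 genes (red) and for the tested genes of the 5 related lists (grey), 1 point per gene with a vertical bar at the median of each list. The 14 basement membrane components lie between -0.18 and 0.13, and 5 of the 6 genes, from Frem1 at -0.94 to Fras1 at 0.57, lie outside this range. Npnt, at 0.15, is only just outside, and the 95% intervals of Npnt, Frem1 and Grip1 include 0.

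Genes with the most similar course over the 4 libraries were sought by the root mean square difference of log2 CPM, each centred on its own mean. For Itga8 these were Ptpn18 (0.0339) and Caln1 (0.0435), and for Fras1 Oca2 (0.0184) and Col6a6 (0.0318). A course within 0.1 of Itga8 was shared by 51 genes and one within 0.1 of Fras1 by 70 genes. The closest genes were Hemk1 (0.0103) and Ubxn6 (0.0104) for Npnt, Mysm1 (0.00745) and Gatad1 (0.00902) for Frem2, and Rhox2b (0.0108) and Dsp (0.0126) for Grip1, where 2084, 2443 and 330 genes lay within 0.1. For Frem1, with its few counts, they were Snord2 (0.0398) and AK076984_gene (0.0413), with 9 genes within 0.1. With 4 libraries, many nearly level genes resemble one another, and the values describe these libraries only.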

How the data were processed

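RNA from 2 mutant and 2 wild-type E13.5 ovary samples was sequenced on Illumina HiSeq. The authors aligned the reads with STAR (2.6.1d in the submitters' processing notes, which also name mm9) and deposited raw counts per gene from summarizeOverlaps, with no normalization or pooling. The annotation and strand handling are not given in the sources used here. Columns were matched to samples by genotype and replicate number, leaving 0 unused.

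Counts were analysed in R 4.3.3 with edgeR 4.0.16 (TMM, filterByExpr, quasi-likelihood F-test, genotype as the only factor, Benjamini-Hochberg adjustment over 15442 genes, threshold 0.05) and, as an alternative, DESeq2 1.42.0. Standard errors and 95% intervals were derived from the fold change and F statistic. Both fits were tested on simulated data. Lengths, positions and sequences came from GENCODE M1 on NCBIM37, translated with the standard code, and are not the authors' coordinates. Log2 CPM for the similarity of courses used a prior count of 2.

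The 6 genes, the related lists and the marker lists were chosen with earlier results of these data known. Named were the 6 genes, Sall1, Itgb1, Egfl6, Frem3, Grip2, Vwa2, Gdnf, Ret, the 2 smallest p-values and any call of each list, and the 2 most similar genes. Fn1, Vtn and the marker genes Tcf21, Pdgfra, Lum, Upk3b, Pax8, Foxl2, Irx3, Fst and Bmp2 lie outside this rule and were named after their values were seen. The same holds for the marker genes Col1a1, Epcam, Cdh1, Wnt4, Runx1, Rspo1, Aard, Sox9, Dhh, Amh, Tnnt1, Actc1 and Acta1. Upk1b, Krt7, Krt18, Krt19, Lrrn4, Nr2f2, Dcn, Pdgfrb, Acta2, Myh11, Rgs5, Cnn1 and Ptgds were likewise named after their values were seen. The count ratios were also added then. Of the endothelial and skeletal muscle markers 0 genes were called by either tool. Alternatives covered the tool, normalization, filter, replicate block and each library left out. A library left alone in its group was assumed to vary like the other group.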

Additional observations from a re-analysis of the deposited data

How the results depend on the processing

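The count of 9 genes called over all 15442 became 105 with DESeq2, 28 with no filter, 19 with at least 10 counts in every library and 385 with the replicate block. With a library left out it ranged from 4 (without wild-type replicate 2) to 130 (without mutant replicate 1), and was 38 without mutant replicate 2; the cause was not tested. The count of 0 called among the 6 genes became 2 with DESeq2 and 2 with the replicate block, namely Itga8 (-0.57 in both, adjusted p = 0.0366 and 0.00297) and Fras1 (0.56 and 0.57, adjusted p = 0.0148 and 0.00467), and was 0 under each other alternative. The 2 calls of DESeq2 became 0 when any library was dropped, an alternative added once the data had been seen. Of the 44 pathway genes tested, 3 were called with the replicate block (Wnt11, Bmp4 and Kif26b, adjusted p = 0.00914, 0.0198 and 0.00141) where 0 were before, and the number ranged from 0 to 1 with a library left out.

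The labels do not say that libraries of one number share a litter or a day, although the library numbers in the column names are consecutive within each. Their deviations from the group means correlated at 0.481 across genes, which is a hint from the data and not from the design, and the replicate block is therefore given only here. Over all alternatives Itga8 ranged from -0.67 to -0.48, Fras1 from 0.45 to 0.71, Npnt from 0.053 to 0.26, Frem1 from -1.11 to -0.73 and Grip1 from 0.084 to 0.48. Frem2 changed sign and ranged from -0.065 (without wild-type replicate 1) to 0.15 with a library left out, and was -0.051 without mutant replicate 1. Frem1 could not be fitted with at least 10 counts in every library. With the union of exons as length, wild-type Itga8 was at 11.4, Grip1 at 3.66 and Frem1 at 0.1 CPM per kb, and Itga8 then came after Frem2. Depth limits Frem1 and Gdnf in particular.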
